A study of Mus musculus with 70 samples.

Results

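Potassium channel genes were defined as every row of the gene-level table whose symbol consists of Kcn, 1 or more lower-case letters and a number, which gave 92 of 34677 genes. All were annotated as protein coding. They comprise 40 voltage-gated pore subunits, 8 calcium- or sodium-activated pore subunits, 15 inward rectifiers, 14 two-pore subunits and 15 auxiliary subunits. The study asked where obesity-associated genes are expressed in the brain and made for this a resource of RNA-Seq libraries, 70 in all and in 24 groups. Levels are given as TPM, a transcript's share of all transcripts scaled to a fixed total, which the authors estimated with Kallisto and which is scaled to transcript length, so that levels of different genes may be compared.

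Adult tissue, 57 libraries from 18 regions, came from male C57BL/6NTac mice (C57BL/6 in the labels) at P56, with no genetic change or treatment named in the labels. The cerebral cortex was sampled as the anterior cingulate area (ACA), frontal pole (FRP) and entorhinal area (ENT). The cerebellar nuclei (CBN), the nucleus accumbens (ACB) of the striatum and the ventral tegmental area (VTA) of the midbrain were sampled as single regions. The hypothalamus was sampled as the arcuate nucleus (ARH), dorsomedial nucleus (DMH), lateral hypothalamic area (LHA), paraventricular nucleus (PVH) and ventromedial nucleus (VMH). The hindbrain nuclei were the dorsal-vagal complex (DVC), nucleus of the solitary tract (NTS) and parabrachial nucleus (PB), and the cerebellar cortex was taken as central lobule II (CENT2), culmen (CUL4,5), uvula (UVU) and flocculus (FL). Embryonic tissue came from C57BL/6NTac embryos (again C57BL/6 in the labels) at E14.5, with 9 libraries from forebrain (F), midbrain (M), hindbrain (H) and terminal with peduncular hypothalamus (THy/PHy). The 4 libraries of mouse embryonic stem cells (mESC) came from 2 C57BL/6 lines, B6-1 and B6-2, kept on irradiated feeder cells and then passaged on gelatin to remove these before RNA was taken, each line being 1 clone. On gelatin the medium held LIF and small-molecule inhibitors, and the RNA was extracted with another kit than that of brain tissue. DMH, NTS, CENT2, CUL4,5 and FL had 4 libraries each, PVH, VMH, M and both mESC lines 2, F 1 and all other groups 3. A brain library was made from punch biopsies pooled over several animals, apart from 1 ACB library, and different regions shared mice. Spread between replicates is therefore between pools, and p-values measure that spread. Brain tissue was collected and prepared in 8 batches, 5 of adult and 3 of embryonic tissue, so developmental stage and batch cannot be told apart. The mESC were a batch of their own, so cell source, culture, RNA extraction and batch cannot be told apart for them either. The sources list the batches by region, not by library, and each library's batch was inferred from the order of the library numbers in the labels. With these batches as a term in the fit, chosen after seeing the data, 3 of 190 calls of named genes between adult regions, between nuclei or in the difference of the stage contrasts were lost, and each is given beside its gene.

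Potassium channels open a path through which potassium leaves or enters the cell and so set the resting potential, the width of action potentials and the firing rate. Voltage-gated channels are tetramers of pore subunits, some of which (the Kcnf, Kcng, Kcns and Kcnv families) form no channel alone and modify the Kcnb channels they join. Inward rectifiers and two-pore channels carry the current at rest, and channels gated by calcium or sodium follow activity. Auxiliary subunits bind the pore and alter its gating or its transport to the membrane.

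Depth was 9074581 to 22229582 counts per library with a median of 17016935, and mitochondrially encoded genes took 39.6% of the TPM in the first VTA library against a next highest share of 22.6% in the first H library. Region markers were read to check the labels. Pomc and Agrp summed to 514 to 872 TPM in ARH, Th and Slc6a3 to 412 to 1457 TPM in VTA, and Pou5f1, Nanog and Zfp42 to 1612 to 1707 TPM in mESC. Hcrt and Pmch, markers of LHA, summed to 4786 to 7069.9 TPM in LHA but also to 4113 to 4534 TPM in VMH. Choroid plexus markers (Ttr, Kl and Folr1) were unequal within groups, reaching 4.09 to 10541 TPM over the 4 NTS libraries and 33.2 to 3021 TPM over the 4 FL libraries.

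Of the 92 genes, 82 reached a group mean of 1 TPM in at least 1 of the 24 groups, where 57.2% of all genes did. In the adult brain 81 reached it in at least 1 region and 52 in every region, against 64 in at least 1 embryonic region and 23 in at least 1 mESC line. The shares of all genes were 51.8%, 37.3%, 48.5% and 42.9% in the same order. The 10 genes below 1 TPM everywhere were Kcna7, Kcna10, Kcne1, Kcnj1, Kcnj15, Kcnk7, Kcnk16, Kcnk18, Kcnmb3 and Kcnv2. Several of these are known mainly from other organs, such as Kcnj1 of the kidney and Kcne1 of heart and inner ear. A total of 38 genes reached 1 TPM in each of the 22 brain regions, where 35.4% of all genes did. The group in which a detected gene was highest lay in the cortex for 21 genes, in the cerebellar cortex for 20, in the hindbrain nuclei for 12, in ACB for 10, in the hypothalamus and the embryonic brain for 6 each, in CBN for 4, in VTA for 2 and in mESC for 1. Voltage-gated genes peaked most often in the cortex, 13 of 37 detected, whereas 5 of the 11 detected two-pore genes peaked in the cerebellar cortex. The same split over all detected genes was not taken, and the systems differ in number of groups, so these counts have no baseline.

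**Figure D1:**
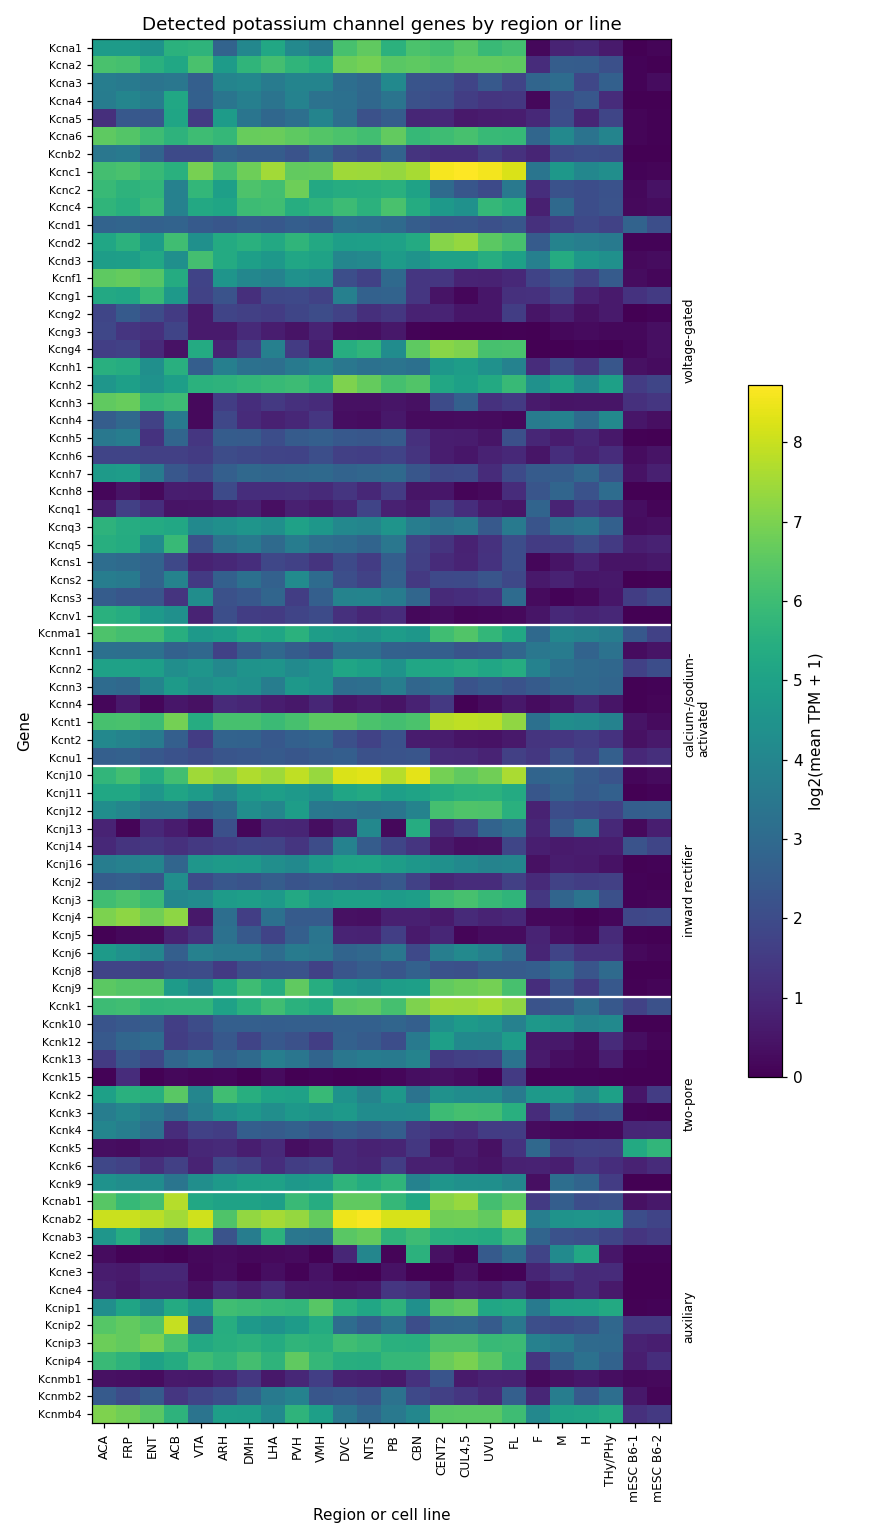
Level of 78 of the detected potassium channel genes as log2(mean TPM + 1), with genes in rows by class and the 24 groups in columns. Kcnc1 is brightest in the columns of the cerebellar cortex, and Kcnk5 is the brightest gene of the mESC columns.

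Summed over the 92 genes, the level was 2948 to 3995 TPM (median 3284) in the 15 libraries of the cerebellar cortex and 1579 to 1666 TPM (median 1654) in ARH, the adult region with the lowest mean. Over all adult libraries the sum ranged from 1233 to 3995 TPM with a median of 2753. Embryonic libraries held 318 to 679 TPM (median 559) and mESC libraries 103 to 121 TPM (median 113), and neither range overlapped the adult one. The lowest embryonic sum belonged to the first H library, which had the fewest counts of all libraries and a mitochondrial share of 22.6%. The other H libraries held 593 and 679 TPM. The lowest adult sum, 1233 TPM, belonged to the first VTA library, the one with the high mitochondrial share. With mitochondrially encoded genes left out of the scaling the adult range was 1729 to 4331 TPM. Voltage-gated subunits made up the largest class sum in every adult region, with 1427 to 2142 TPM (median 1645) in the cerebellar cortex and 655 to 997 TPM (median 862) in the hypothalamus. No test was made of these sums.

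**Figure D2:**
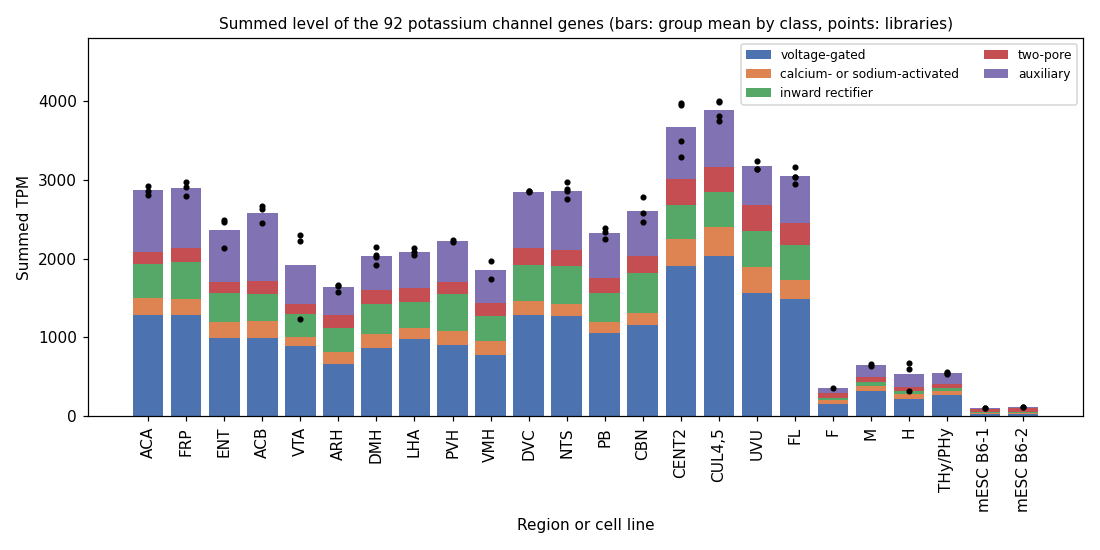
Summed TPM of the 92 genes by region or line, with bars for the group mean stacked by class and points for single libraries. All adult bars stand above the embryonic and mESC bars, and 1 VTA point at 1233 TPM lies below the other 2.

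Among the genes with high levels in the adult brain, Kcnc1, which encodes a fast-gating channel of rapidly firing neurons, averaged 174 TPM over the 18 adult regions, with 422 ± 36.8 TPM (SD, n = 4) in CUL4,5 and 66.8 ± 4.53 TPM (n = 3) in ARH. Kcnab2, a cytoplasmic subunit of the Kcna channels, averaged 207 TPM and reached 398 ± 43.5 TPM in NTS, while Kcnab1 averaged 78.1 TPM and peaked in ACB at 213 ± 27.1 TPM. Kcnj10, the inward rectifier of astrocytes and oligodendrocytes, averaged 167 TPM and ranged from 41.3 ± 4.56 TPM in ENT to 329.6 ± 55.1 TPM in CBN. The sodium-activated Kcnt1 averaged 105 TPM with its highest mean in CUL4,5 (234 ± 8.22 TPM). Kcnk1, a two-pore channel, averaged 88.2 TPM, and Kcna6 and Kcna2, of the axonal Kcna family, averaged 74.3 and 73.4 TPM. Other genes of the highest 15 were Kcnip3, Kcnip4, Kcnj9, Kcnd2 and Kcnh2, with means of 53.8 to 63.9 TPM.

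Some genes were concentrated in 1 system, defined as a highest group mean of at least 5 TPM and at least 3 times the highest mean of every other system. Kcnj14, a strong inward rectifier described in cranial motor nuclei, had 28.9, 5.98 and 5.75 TPM in the DVC libraries and a mean of 4.78 TPM in NTS, so that 1 DVC library carried the high mean. Kcnj2, a strong inward rectifier that holds the resting potential, had 21.7, 20.04 and 14.2 TPM in ACB, all above the next group mean of 5.17 TPM in FRP. Kcnj5, a subunit of G protein-gated channels, was highest in VMH (10.8 and 8.32 TPM) and ARH (8.51, 8.27 and 8.67 TPM), with overlapping ranges. Kcnh7, a channel of the ether-a-go-go-related group, had means of 27.5 TPM in FRP and 26.2 TPM in ACA. Kcnk5, an acid-sensitive two-pore channel, met the rule through mESC and is described with these cells.

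The promoters of 5 genes are printed because regional results turn on these genes, which were chosen after their values were seen. Each run is the 200 bases upstream of the RefSeq start site in GRCm38.p6, 5′ to 3′ on the strand of the gene, and capitals mark GGGCGG, the GC box, or its reverse complement CCGCCC.
Kcnc1, chr7:46396268-46396467, plus strand: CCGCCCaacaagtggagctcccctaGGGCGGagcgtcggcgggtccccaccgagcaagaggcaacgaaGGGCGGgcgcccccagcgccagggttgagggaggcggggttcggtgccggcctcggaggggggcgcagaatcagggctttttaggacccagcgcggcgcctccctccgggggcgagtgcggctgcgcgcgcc
Kcng4, chr8:119635681-119635880, minus strand: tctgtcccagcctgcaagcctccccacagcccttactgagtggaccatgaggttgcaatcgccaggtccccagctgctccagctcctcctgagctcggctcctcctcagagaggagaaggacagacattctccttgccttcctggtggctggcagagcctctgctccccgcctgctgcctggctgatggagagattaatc
Kcnj4, chr15:79505242-79505441, minus strand: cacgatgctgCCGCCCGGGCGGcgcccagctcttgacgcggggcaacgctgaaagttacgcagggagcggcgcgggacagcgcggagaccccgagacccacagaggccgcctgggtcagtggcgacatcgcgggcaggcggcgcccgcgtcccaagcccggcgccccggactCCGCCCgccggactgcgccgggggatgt
Kcnf1, chr12:17176889-17177088, minus strand: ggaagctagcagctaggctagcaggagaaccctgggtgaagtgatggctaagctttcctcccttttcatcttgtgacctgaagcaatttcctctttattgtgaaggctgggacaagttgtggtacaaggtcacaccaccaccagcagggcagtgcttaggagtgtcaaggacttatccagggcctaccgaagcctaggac
Kcnk5, chr14:20181783-20181982, minus strand: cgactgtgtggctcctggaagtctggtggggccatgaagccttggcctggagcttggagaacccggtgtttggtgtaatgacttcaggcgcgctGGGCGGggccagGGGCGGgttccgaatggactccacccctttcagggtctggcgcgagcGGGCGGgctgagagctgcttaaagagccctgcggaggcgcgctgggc
The windows of Kcnc1, Kcnj4 and Kcnk5 held 3 GC boxes each, counted on both strands, and 24, 31 and 14 CpG dinucleotides, whereas those of Kcng4 and Kcnf1 held 0 boxes and 3 and 1 CpG. None of the 5 windows held TATAAA on either strand. In all, 67 genes matched 92 RefSeq promoters of 300 bases, which run from 250 before to 50 after the start. GGGCGG on either strand was found in 47.8% of these, against 35.7% of all 32851 promoters, and TATAAA in 5.43% against 13.6%. CACGTG, the E-box, was found in 7.61% against 7.15%, and the median number of CpG was 9 against 7. These shares describe letters in a window and were not tested.

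Tests compared counts with edgeR's quasi-likelihood test over all 70 libraries. A comparison sets the mean log2 level of the regions on one side against that of the other, so every region weighs the same and 1 very high region raises a side less than it raises a mean TPM. Of 19980 genes tested, 86 were potassium channel genes, the other 6 being too low. Calls required more than a 2-fold change together with a Benjamini-Hochberg adjusted p, over all genes tested, under 0.05. In the 7 comparisons of an adult system with the other adult regions, 78 of the 86 were called at least once and 58 were called higher in 1 system and lower in another. The shares of all tested genes called in these ways were not taken, so these counts have no baseline. In bulk tissue, fewer cells of a type and less RNA per cell cannot be told apart.

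In the cerebellar cortex 17 channel genes were higher and 34 lower than in the other 14 adult regions, 19.8% and 39.5% of those tested, where 8.21% of all genes were higher and 9.75% lower. The higher genes included channels for fast repolarisation and leak channels, and 20 of 39 voltage-gated genes were lower. Kcnc1 had 269 to 473 TPM (median 385) in the 15 cerebellar libraries and 41.4 to 202 TPM (median 108) in the other 42 (log2 fold change 1.55 ± 0.05 (SE), adjusted p = 8.41e-32). Every cerebellar library lay above every other adult library, and the same held for Kcnj12 (2.34), Kcnk3 (1.72), Kcnk10 (2.13) and Kcnk1 (1.35), with log2 fold changes in parentheses. Kcnj12, a strong inward rectifier, rose from 2.001 to 30.8 TPM (median 10.8) elsewhere to 37.5 to 84.5 TPM (median 74.1). Kcnk3, an acid-sensitive leak channel of cerebellar granule cells, had 34.8 to 83.6 TPM (median 62.3) against 7.07 to 27.4 TPM (median 18.03).

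The largest increase was that of Kcng4, a silent subunit that modifies Kcnb channels (log2 fold change 4.15 ± 0.08 (SE), adjusted p = 2.47e-43). Its levels were 65.5 to 166 TPM (median 109) in the cerebellar cortex and 0.211 to 102 TPM (median 2.47) elsewhere, with an overlap through CBN, where it was 84.6, 96.7 and 102 TPM. The leak channels Kcnk12 (2.25), Kcnk10 and Kcnk3, the sodium-activated Kcnt1 (1.57), the A-type channel Kcnd2 (1.43), the BK subunit Kcnmb4 (1.46) and the GIRK subunit Kcnj9 (1.04) were higher as well. Kcnv2 (2.96) and Kcnk15 (2.09) were called higher from group means of at most 0.522 and 1.78 TPM. Kcnj13 (1.48) was called too, though its mean TPM was 4.26 in the cerebellar cortex and 4.72 elsewhere. The call was lost without CENT2 replicate 2 or UVU replicate 1.

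Among the lower genes, the silent subunits Kcng3, Kcnv1, Kcng1 and Kcnf1 fell most (-4.95, -4.66, -4.29 and -3.94 on the log2 scale). The M-current subunits Kcnq5 (-3.50) and Kcnq3 (-1.72) were lower. Kcnc2, a relative of Kcnc1, was lower (log2 fold change -3.31 ± 0.21 (SE), adjusted p = 5.93e-20), opposite in direction to it. Its 4 CENT2 values were 20.3, 2.56, 1.32 and 4.19 TPM and its 3 UVU values 4.82, 1.08 and 2.79 TPM, with 1 CENT2 library far above the rest. Other genes among the largest decreases were the sodium-activated Kcnt2 (-3.73), Kcna5 (-3.25), the strong inward rectifier Kcnj4 (-2.83) and Kcnh4 (-2.63). Granule cell markers (Gabra6, Neurod1, Cbln3; all 3 at 1 TPM or more) summed to 591 to 1832 TPM in the cerebellar cortex, and oligodendrocyte markers to 8151 to 11112 TPM in FL against 1721 to 2205 TPM in CUL4,5. What part cell makeup had in these differences was not tested.

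**Figure D3:**
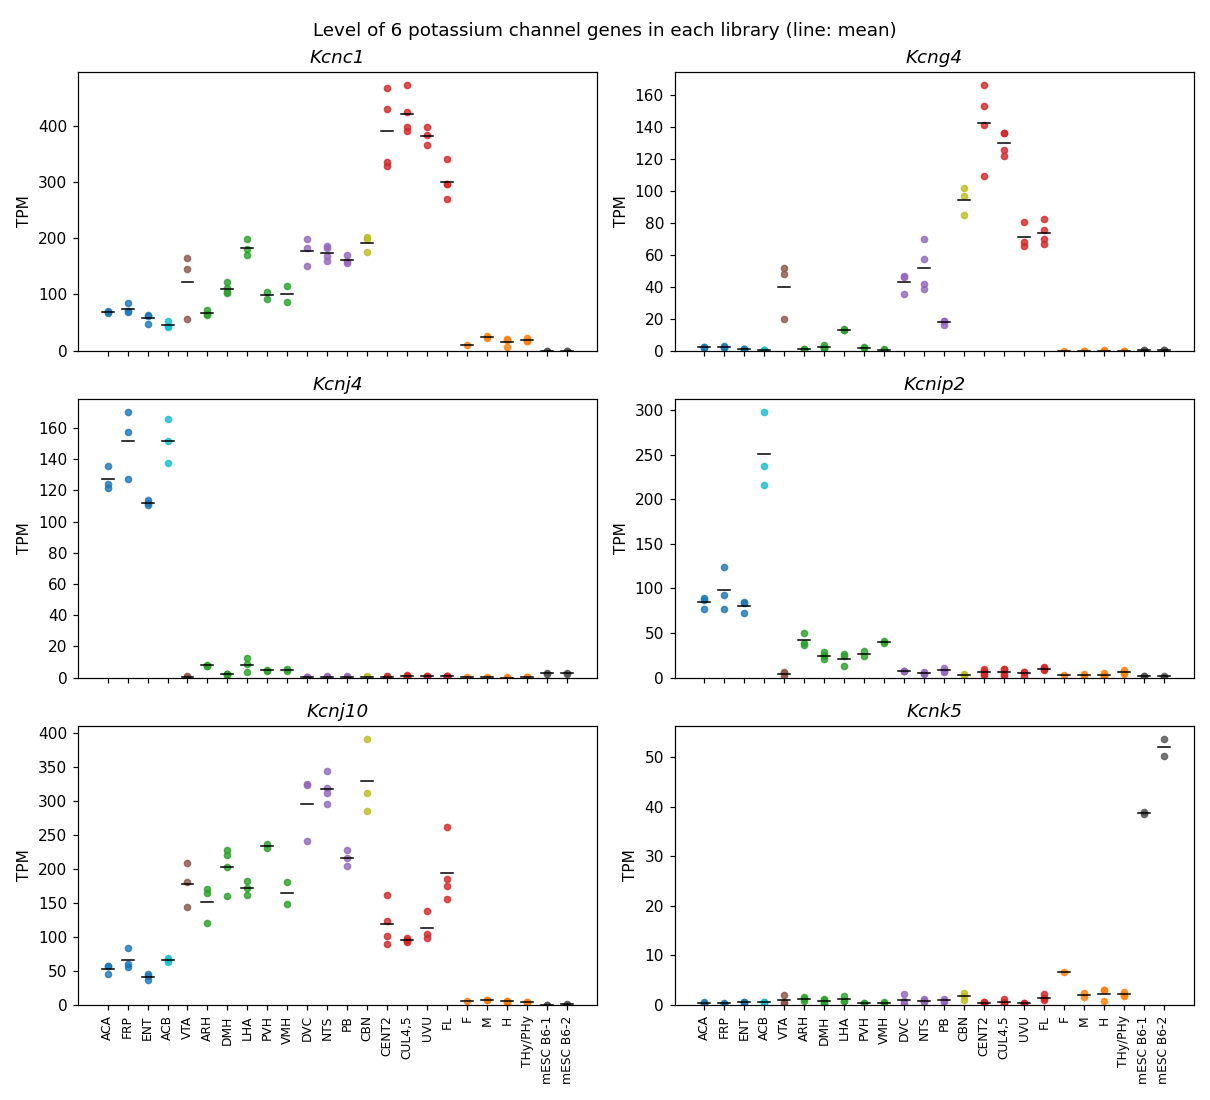
TPM of Kcnc1, Kcng4, Kcnj4, Kcnip2, Kcnj10 and Kcnk5 in each of the 70 libraries (points) with group means (lines), coloured by system. Kcnc1 and Kcng4 are highest in CENT2 and CUL4,5, Kcnj4 in the cortex and ACB, Kcnip2 in ACB, Kcnj10 in CBN and NTS, and Kcnk5 in the 2 mESC lines.

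In CBN 13 channel genes were higher and 20 lower (15.1% and 23.3% of those tested, against 7.86% and 2.88% of all genes). Kcng4 had 84.6, 96.7 and 102 TPM in the 3 CBN libraries against 0.211 to 166 TPM (median 17.4) in the other adult libraries (log2 fold change 3.55 ± 0.11 (SE), adjusted p = 1.29e-31). Kcnj10 was 392, 311 and 286 TPM against 36.4 to 344 TPM (median 161) elsewhere (log2 fold change 1.35 ± 0.11 (SE), adjusted p = 3.39e-14). Beside it, oligodendrocyte markers (5 of 5 at 1 TPM or more) summed to 10574 to 17498 TPM in CBN and astrocyte markers (5 of 5) to 788 to 908 TPM, against 579 to 1999.7 TPM and 591 to 760.02 TPM in the cortex, and their part in the Kcnj10 result was not tested. The axonal genes Kcna1 (1.22) and Kcnab3 (1.30) and the two-pore gene Kcnk13 (1.46) were also higher. The lower genes were mainly voltage-gated (13 of 39), led by Kcnv1 (-3.54), Kcnh3 (-3.06) and the auxiliary Kcnip2 (-2.70). Kcnk2, a mechanosensitive leak channel, had 9.18, 8.11 and 9.52 TPM, below every other adult library (log2 fold change -1.56 ± 0.10 (SE), adjusted p = 2.46e-18).

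The 2 largest increases in CBN were those of Kcne2 and Kcnj13, both of which encode channel subunits of the choroid plexus epithelium. Kcne2 had 89.1, 16.8 and 35.7 TPM in CBN (log2 fold change 7.50 ± 0.57 (SE), adjusted p = 7.14e-16) and Kcnj13 82.5, 17.3 and 24.1 TPM (log2 fold change 5.86 ± 0.49 (SE), adjusted p = 2.59e-14). Choroid plexus markers summed to 3495 to 12519.8 TPM over the same 3 libraries and to 0.763 to 5.12 TPM in the cortex, where Kcne2 was at most 0.225 TPM. In NTS, Kcne2 was 59.3, 0.0698, 0.141 and 0.272 TPM and Kcnj13 60.5, 1.24, 0.158 and 1.14 TPM, and the library with the high values was the one whose markers summed to 10541 TPM. In FL, Kcne2 was 11.7, 16.2, 2.73 and 0.182 TPM and in the embryonic hindbrain 16.5, 34.1 and 58.8 TPM. Kcne2 was high in the libraries with a high marker sum, and so was Kcnj13. Kcnj13 was also 4.50, 3.39 and 2.11 TPM in ARH, where the marker sum was 12.8 to 15.2 TPM and Kcne2 0.218, 0.0610 and 0.274 TPM. Single libraries elsewhere had similar Kcnj13 levels, such as UVU replicate 2 at 4.49 TPM (marker sum 7.60 TPM). Another was CUL4,5 replicate 1 at 4.37 TPM (marker sum 3.05 TPM). The part of choroid plexus in these levels was not tested. In mESC the marker sum of 144 to 175 TPM was nearly all Folr1, with Ttr at 0 to 0.104 TPM, and Kcne2 was 0.103 and 0 TPM in B6-1.

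**Figure D4:**
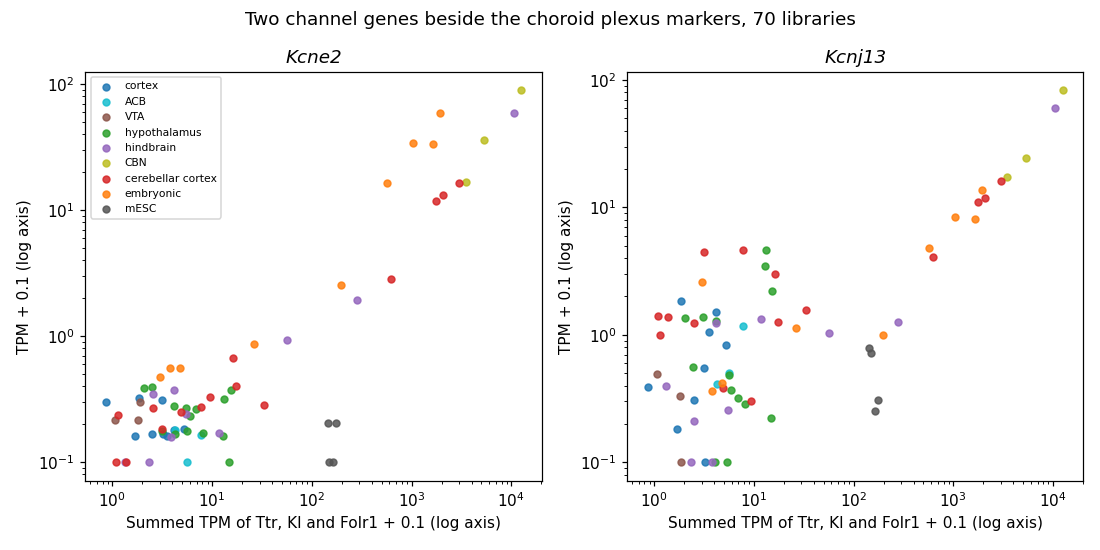
TPM + 0.1 of Kcne2 (left) and Kcnj13 (right) against the summed TPM + 0.1 of Ttr, Kl and Folr1, both on log axes, for the 70 libraries coloured by system. All 3 CBN libraries lie at the upper right, and the 3 ARH libraries, like some libraries of other regions, show Kcnj13 without a high marker sum.

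In the hindbrain nuclei 13 channel genes were higher and 9 lower (15.1% and 10.5%, against 5.17% and 2.67% of all genes). Kcnk9, an acid-sensitive leak channel, had 61.8, 41.8 and 47.5 TPM in DVC, 42.5, 38.1, 37.02 and 44.96 TPM in NTS and 48.6, 54.2 and 49.4 TPM in PB. All 10 lay above the other 47 adult libraries at 6.16 to 35.3 TPM (median 20.7) (log2 fold change 1.27 ± 0.10 (SE), adjusted p = 3.09e-16). Kcnj14 was higher (log2 fold change 2.15 ± 0.24 (SE), adjusted p = 4.15e-11), with its highest value in DVC replicate 1, and the log2 fold change ran from 1.74 to 2.27 when single libraries were left out. Of the Kcna and Kcnab genes, Kcna1, Kcnab2 and Kcnab3 were higher and the others tested were not called, with Kcnab3 at 46.2 to 109 TPM (median 89.7) against 3.03 to 75.6 TPM (median 37.8) (log2 fold change 1.75 ± 0.07 (SE), adjusted p = 9.85e-26), Kcnab2 at 267 to 423 TPM (median 355) against 74.7 to 329.6 TPM (median 178) (log2 fold change 1.08 ± 0.06 (SE), adjusted p = 4.36e-20) and Kcna1 at 43.5 to 106 TPM (median 74.8) against 5.47 to 96.4 TPM (median 40.3) (log2 fold change 1.15 ± 0.08 (SE), adjusted p = 3.07e-17). Kcnh2, whose channel repolarises heart and neurons, was highest in DVC (118, 141 and 134 TPM; log2 fold change 1.17 ± 0.07 (SE), adjusted p = 2.51e-21). The silent subunits Kcng4 (2.19) and Kcns3 (1.92) were higher on the log scale. For Kcng4 the mean TPM was 37.4 here and 38.4 elsewhere, the difference from the fold being that between a mean of logs and a mean of levels. Kcnj10 was higher at 204 to 344 TPM (median 304) (log2 fold change 1.15 ± 0.07 (SE), adjusted p = 2.88e-19), beside an oligodendrocyte marker sum of 9572 to 14668 TPM and an astrocyte marker sum of 584 to 816 TPM, and their part was not tested.

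The lower genes of the hindbrain nuclei were led by Kcnj4 and Kcnh3. Kcnj4 had 0.0515 to 1.03 TPM (median 0.359) (log2 fold change -3.80 ± 0.23 (SE), adjusted p = 5.45e-20) and Kcnh3 0.119 to 0.473 TPM (median 0.367) (-3.39). Kcnmb4, the neuronal subunit of the BK channel, had 4.49 to 13.4 TPM (median 8.47) against 6.9999 to 134 TPM (median 56.9) (log2 fold change -2.30 ± 0.11 (SE), adjusted p = 1.30e-23). The inward rectifiers Kcnj9 (-1.19) and Kcnj12 (-1.05) and the subunits Kcnip2 (-1.71), Kcnf1 (-1.25) and Kcnh4 (-1.55) were lower too, along with Kcnj15 at 0 to 0.0892 TPM (median 0.0367), a call lost without DVC replicate 2 or PB replicate 2.

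The cortex had the largest count of higher channel genes among the adult systems, 32 higher and 10 lower (37.2% and 11.6%, against 8.17% and 7.95% of all genes), and 20 of 39 voltage-gated genes were higher. The largest change was that of Kcnj4, a strong inward rectifier of forebrain neurons, with 122, 136 and 124 TPM in ACA, 170.2, 127 and 157 TPM in FRP and 111, 112 and 114 TPM in ENT, against 0.0515 to 166 TPM (median 1.003) in the other 48 adult libraries (log2 fold change 6.32 ± 0.11 (SE), adjusted p = 1.28e-43). Only the 3 ACB libraries reached the cortical range. Kcnh3, a forebrain channel of the ether-a-go-go-like group, had 46.6 to 121 TPM (median 94.3) against 0.0671 to 66.8 TPM (median 1.18) (log2 fold change 6.13 ± 0.10 (SE), adjusted p = 9.79e-45). Silent subunits changed in both directions, Kcng4 and Kcnv2 being lower. Among the higher ones were Kcnv1 at 21.7 to 50.5 TPM (median 39.1) against 0 to 24.7 TPM (median 1.003) (log2 fold change 5.48 ± 0.13 (SE), adjusted p = 8.31e-37) and Kcng1 at 27.4 to 60.5 TPM (median 38.9) against 0 to 28.5 TPM (median 2.03) (log2 fold change 4.54 ± 0.12 (SE), adjusted p = 5.65e-36). Kcnf1 had 75.8 to 114 TPM (median 93.9) against 0.550 to 42.3 TPM (median 3.10) (log2 fold change 4.39 ± 0.10 (SE), adjusted p = 4.07e-39), and no other adult library reached its lowest cortical value.

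Every cortical library also exceeded every other adult library for Kcnh7 (2.34), the mechanosensitive leak channel Kcnk4 (2.17) and the calcium-binding Kcnip3 (1.13). Kcnip3, which also acts as a transcriptional repressor, had 92.1 to 123 TPM (median 104) against 29.2 to 86.5 TPM (median 53.8). Of the M-current subunits, Kcnq5 (2.81) and Kcnq3 (1.54) were higher. Of the BK channel, the pore Kcnma1 (1.16) and the neuronal subunit Kcnmb4 (2.05) were higher, as were Kcnh4 (3.19), Kcng3 (3.11), Kcnip2 (3.01) and Kcnt2 (2.91). The GIRK subunits, Kcnj3 (1.15), Kcnj6 (1.23) and Kcnj9 (1.004), were higher and the remaining one, Kcnj5, was lower at 0 to 0.261 TPM (median 0.0856) (log2 fold change -3.76 ± 0.34 (SE), adjusted p = 2.93e-14). Kcnj9 lay at the fold limit and its call was lost when ACA replicate 3, ENT replicate 2 or FRP replicate 2 was left out.

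Genes lower in the cortex included Kcng4 (-2.92), Kcnh2 (-1.05) and Kcnh8 (-1.74). Kcnv2 had the largest decrease (-4.18) at levels of at most 0.0199 TPM in the cortex. Kcnj10 had 36.4 to 82.8 TPM (median 55.8) against 63.5 to 392 TPM (median 178) (log2 fold change -1.63 ± 0.09 (SE), adjusted p = 1.02e-21). Astrocyte markers summed to 591 to 760.02 TPM in the cortex and 547 to 817 TPM in the hypothalamus, and oligodendrocyte markers to 579 to 1999.7 TPM and 844 to 12949.8 TPM, and their part in the lower Kcnj10 was not tested. Kcnk13, known from microglia, was lower (-1.22) while microglia markers (5 of 5) summed to 155 to 195 TPM in the cortex and 98.8 to 132 TPM in the hindbrain nuclei, where Kcnk13 was higher (1.16), and their part was not tested.

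In ACB 23 channel genes were higher and 20 lower (26.7% and 23.3%, against 7.3% and 5.49% of all genes). Kcnip2, which binds the A-type Kcnd channels, had 298, 238 and 216 TPM and stood above every other adult library, at 1.68 to 124 TPM (median 10.1) (log2 fold change 4.27 ± 0.13 (SE), adjusted p = 3.75e-32). Kcnd2, one of its partners, was 75.9, 62.3 and 56.8 TPM in ACB and changed by less than 2-fold (0.50 ± 0.12 (SE), adjusted p = 3.42e-04). Further genes were above all other adult libraries. Kcnj2 had 21.7, 20.04 and 14.2 TPM against 0.650 to 6.07 TPM (median 3.37) (log2 fold change 2.64 ± 0.12 (SE), adjusted p = 1.37e-24). Kcna4, another A-type channel, had 43.97, 32.8 and 29.6 TPM against 1.04 to 17.5 TPM (median 8.26) (log2 fold change 2.49 ± 0.13 (SE), adjusted p = 1.21e-22). Kcnk2 had 85.4, 104 and 75.5 TPM against 8.11 to 65.98 TPM (median 22.4) (log2 fold change 1.82 ± 0.07 (SE), adjusted p = 1.99e-28). Kcnab1 had 239, 215 and 185 TPM against 17.7 to 184 TPM (median 64.4) (log2 fold change 1.72 ± 0.11 (SE), adjusted p = 6.11e-20).

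Kcnj4 was 152, 166 and 138 TPM (log2 fold change 5.72 ± 0.13 (SE), adjusted p = 3.32e-38), so both strong inward rectifiers Kcnj2 and Kcnj4 were higher, whereas Kcnj12, of the same group, changed by less than 2-fold (-0.79 ± 0.16 (SE), adjusted p = 5.38e-05). Kcna5 had 34.9, 41.6 and 25.5 TPM against 0.0486 to 29.6 TPM (median 3.36) (log2 fold change 3.47 ± 0.20 (SE), adjusted p = 9.48e-21), with ARH as the nearest region at 24.9, 29.6 and 25.1 TPM. Kcnh3 (4.87), Kcnh4 (4.17), Kcnv1 (3.81), Kcnq5 (3.21), Kcng3 (3.16), Kcng1 (3.13) and Kcne3 (2.82, at a mean of 0.937 TPM) completed the 10 largest increases. Of the 20 lower genes, Kcng4 fell most, to 0.539, 0.211 and 0.281 TPM (log2 fold change -5.14 ± 0.28 (SE), adjusted p = 5.55e-22). Kcnc1 (-1.32), Kcnc2 (-1.17) and Kcnc4 (-1.79) were lower, and the call of Kcnc2 was lost without ACB replicate 2. The leak channels Kcnk10 (-1.98), Kcnk3 (-1.67), Kcnk4 (-1.66) and Kcnk12 (-1.64) and the GIRK subunits Kcnj3 (-1.40), Kcnj6 (-1.13) and Kcnj9 (-1.00002) were lower, the calls of Kcnj6 and Kcnj9 being lost without ACB replicate 1 and that of Kcnj9 also without replicate 2. Kcnj16, the glial partner of Kcnj10, had 7.998, 3.59 and 6.80 TPM, below every other adult library (log2 fold change -1.92 ± 0.17 (SE), adjusted p = 5.28e-14). Kcnj10 was lower as well (-1.18), beside astrocyte and oligodendrocyte marker sums of 667 to 715 TPM and 3987 to 5081 TPM, whose part was not tested.

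In VTA 11 channel genes were higher and 14 lower (12.8% and 16.3%, against 6.89% and 3.65% of all genes). The split differed in limma on TPM. In limma on log2(TPM + 0.5) it was 3 higher and 21 lower and the median of all genes moved by -0.39, and with a pseudocount of 0.1 it was 3 and 23 with a shift of -0.47, while edgeR scaled without mitochondrially encoded genes gave 11 and 14. The cause was not tested. Kcnd3, an A-type channel of dopamine neurons, had 71.7, 50.6 and 81.8 TPM and was above every other adult library at 13.97 to 46.6 TPM (median 28.8) (log2 fold change 1.40 ± 0.09 (SE), adjusted p = 5.10e-18). Kcns3 had 7.51, 23.9 and 23.7 TPM against 0.5679 to 16.1 TPM (median 4.53) (log2 fold change 2.57 ± 0.16 (SE), adjusted p = 1.09e-18), and Kcng4 19.5, 51.9 and 47.9 TPM (log2 fold change 2.56 ± 0.12 (SE), adjusted p = 5.40e-24). These 3 remained higher in every alternative run. The other higher genes included the SK channel Kcnn3 (1.44), which shapes the firing of dopamine neurons, Kcnc2 (1.46), Kcnab3 (1.33) and Kcnj5 (1.31), none of which passed in limma on TPM. Kcnj6, a GIRK subunit of dopamine neurons, had 8.33, 15.3 and 16.1 TPM, under the 2-fold limit (0.95 ± 0.17 (SE), adjusted p = 8.22e-06).

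The lower genes in VTA were led by Kcnh3 at 0.0671, 0.310 and 0.151 TPM (-3.68), Kcnj4 at 0.0870, 0.980 and 0.348 TPM (-2.78), Kcnip2 (-2.003), Kcnmb4 (-1.91) and Kcnh4 (-1.85). Kcnj12 (-1.34), Kcnj9 (-1.26), Kcnf1 (-1.38), Kcnh1 (-1.25) and Kcns1 (-1.25) followed. Without VTA replicate 1, the library with the high mitochondrial share, the count of lower genes was 9 in place of 14, and the calls of Kcnt1, Kcng2, Kcns2 and Kcns1 were among those lost. Oligodendrocyte markers summed to 7445 to 14653 TPM in VTA, and their part in these values was not tested.

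In the hypothalamus 12 channel genes were higher and 8 lower (14% and 9.3%, against 6.11% and 2.74% of all genes). Kcnj5 led the higher genes, with 2.16 to 10.8 TPM (median 4.76) in the 14 hypothalamic libraries and 0 to 2.34 TPM (median 0.304) in the other 43 (log2 fold change 3.80 ± 0.17 (SE), adjusted p = 5.65e-25). By nucleus the Kcnj5 values were 8.51, 8.27 and 8.67 TPM in ARH, 4.52, 3.89, 4.44 and 4.997 TPM in DMH, 2.39, 2.16 and 2.68 TPM in LHA, 4.14 and 6.45 TPM in PVH and 10.8 and 8.32 TPM in VMH. LHA was thus lowest and VMH and ARH highest. Kcna5 (log2 fold change 2.25 ± 0.15 (SE), adjusted p = 3.77e-19) was higher, as were Kcnh8 (1.66), Kcnf1 (1.53), Kcnt2 (1.48), Kcng3 (1.41), Kcnc2 (1.33), Kcnn3 (1.13), Kcnn4 (1.07) and Kcna3 (1.07). The call of Kcnn4 was lost without PVH replicate 1 or VMH replicate 2. The other higher genes named here were also called lower in the cerebellar cortex, which is part of the other side. With equal weight of the 7 adult systems, fewer channel genes were higher in the hypothalamus. For Kcnf1 the mean TPM was 17.9 in the hypothalamus and 26.1 elsewhere, and for Kcng3 0.688 and 0.740.

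The 8 lower genes included Kcng4 (-3.32), Kcnab3 (-1.97), Kcna1 (-1.96), Kcnk12 (-1.31), Kcnh3 (-1.23), Kcnab1 (-1.14) and Kcnk1 (-1.12). Kcna1 had 5.47 to 40.3 TPM (median 15.6) against 18.7 to 106 TPM (median 63.7) (log2 fold change -1.96 ± 0.09 (SE), adjusted p = 4.14e-24), and the ranges overlapped.

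Between the 5 nuclei, each set against the other 4, differences were fewer. ARH had 5 channel genes higher and 9 lower (4.71% and 2.19% of all genes). Kcna5 was 24.9, 29.6 and 25.1 TPM in ARH against 6.05 to 14.7 TPM (median 8.58) in the other nuclei (log2 fold change 1.47 ± 0.28 (SE), adjusted p = 6.77e-05), without overlap. Kcnj13 (3.30, 4.50, 3.39 and 2.11 TPM), Kcnh4 (1.24) and Kcnh8 (1.09) were also above all other hypothalamic libraries, and Kcnk5 (1.11) was called at a mean of 1.07 TPM, a call lost without ARH replicate 1 or 2 and, at a log2 of 0.92, with the collection batches in the fit. Pituitary markers (Cga, Tshb, Fshb, Lhb) summed to 75.02 to 109 TPM in ARH and 1.94 to 3.41 TPM in DMH, and choroid plexus markers to 12.8 to 15.2 TPM in ARH. Their part in the ARH values was not tested. The lower genes included Kcnab3 at 3.57, 3.03 and 4.37 TPM against 5.11 to 49.8 TPM (median 11.7) (log2 fold change -2.18 ± 0.20 (SE), adjusted p = 3.11e-12), Kcna1 at 5.47, 6.17 and 5.91 TPM against 6.56 to 40.3 TPM (median 16.04) (log2 fold change -1.63 ± 0.19 (SE), adjusted p = 3.78e-09), and Kcna2 (-1.06), Kcnc2 (-1.36), Kcng4 (-1.63), Kcnmb2 (-1.93), Kcnk4 (-1.31), Kcnj12 (-1.27) and Kcnn1 (-1.03). The call of Kcnn1 was lost without ARH replicate 3 or VMH replicate 1 and that of Kcna2 without the latter. Myelin markers summed to 844 to 1467 TPM in ARH and 9930.5 to 12949.8 TPM in LHA, and their part in the lower ARH values was not tested.

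LHA had 8 channel genes higher and 2 lower (2.32% and 2.73% of all genes). Here Kcng4 had 12.6, 12.8 and 13.8 TPM against 0.378 to 3.55 TPM (median 1.41) (log2 fold change 3.54 ± 0.17 (SE), adjusted p = 1.38e-21), Kcnab3 48.3, 46.3 and 49.8 TPM against 3.03 to 16.9 TPM (median 9.31) (log2 fold change 2.74 ± 0.15 (SE), adjusted p = 1.49e-20) and Kcna1 40.3, 36.1 and 33.8 TPM (log2 fold change 1.77 ± 0.15 (SE), adjusted p = 5.90e-13). All 3 LHA libraries lay above the other hypothalamic libraries for these 3 genes. Kcnmb2 (1.32), Kcnk15 (3.09), Kcnk5 (1.31) and Kcnj4 (1.05) were called higher with overlap, and Kcnj5 (-1.39) and Kcnmb1 (-1.34) lower. The calls of Kcnk15, Kcnk5, Kcnj4, Kcnj5 and Kcnmb1 were lost without LHA replicate 1, that of Kcnj4 also without VMH replicate 2 and with the collection batches in the fit (log2 0.99), that of Kcnj5 without LHA replicate 2 and that of Kcnmb1 without LHA replicate 3. PVH had 5 higher and 1 lower (1.42% and 0.616% of all genes). Its 2 libraries had Kcns2, a silent subunit, at 17.2 and 17.9 TPM against 4.72 to 9.25 TPM (median 6.18) (log2 fold change 1.45 ± 0.16 (SE), adjusted p = 9.94e-10), Kcnj12 at 24.7 and 30.8 TPM against 6.42 to 21.2 TPM (median 14.7) (log2 fold change 1.22 ± 0.17 (SE), adjusted p = 7.99e-07) and Kcnj9 at 94.3 and 94.9 TPM against 34.7 to 75.4 TPM (median 42.6) (log2 fold change 1.09 ± 0.13 (SE), adjusted p = 1.78e-08), each without overlap. Kcnc2 (1.21) and Kcnmb2 (1.46) were higher and Kcns3 (-1.15) lower, the calls of Kcnc2 and Kcns3 being lost without either PVH library and that of Kcnc2 also without LHA replicate 3 or VMH replicate 2 and with the collection batches in the fit (adjusted p = 0.128, edgeR).

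DMH and VMH had the fewest calls. In DMH 0 channel genes were higher and 2 lower (0.445% and 0.155% of all genes), Kcnj4 at 2.61, 1.44, 2.24 and 2.06 TPM (log2 fold change -1.58 ± 0.26 (SE), adjusted p = 9.07e-05) and Kcng1 (-1.08), a call lost when any 1 of the 4 DMH libraries, and some libraries of other nuclei, were left out. In VMH 0 were higher and 1, Kcng4 at 0.937 and 0.378 TPM (log2 fold change -1.97 ± 0.32 (SE), adjusted p = 5.72e-05), was lower, a call lost without VMH replicate 2 (0.791% and 0.681% of all genes). At an unadjusted p under 0.05, 7 channel genes were higher in DMH and 7 in VMH by edgeR, and DESeq2 called 0 and 0 higher.

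Between stages the channel genes moved mostly one way. In the embryonic brain 7 were higher and 53 lower than in the adult brain, 8.14% and 61.6% of those tested, where 17.8% and 19.9% of all genes were. The median log2 fold change was -1.68 over the 86 genes and 0 over all genes. It was -2.94 for inward rectifiers (9 of 14 lower), -1.95 for voltage-gated genes (28 of 39 lower), -1.93 for two-pore genes (6 of 12), -1.39 for auxiliary subunits (7 of 13) and -0.81 for calcium- or sodium-activated genes (3 of 8). For 19 genes all 9 embryonic libraries lay below all 57 adult ones. How many of all genes did so was not counted.

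Kcng4 showed the largest decrease, from 0.211 to 166 TPM (median 18.7) in the adult libraries to 0 to 0.102 TPM (median 0.0279) in the embryonic ones (log2 fold change -8.95 ± 0.31 (SE), adjusted p = 7.94e-32), without overlap. The axonal channels fell far, Kcna1 to 0.130 to 1.34 TPM (median 0.651) from 5.47 to 106 TPM (median 49.2) (log2 fold change -6.23 ± 0.21 (SE), adjusted p = 9.20e-32) and Kcna2 to 1.18 to 6.38 TPM (median 4.22) from 24.7 to 129.7 TPM (median 81.5) (log2 fold change -4.49 ± 0.11 (SE), adjusted p = 1.56e-37), as did their subunit Kcnab1 (-4.42). The glial inward rectifiers fell as well, Kcnj10 to 2.57 to 6.98 TPM (median 5.62) from 36.4 to 392 TPM (median 162) (log2 fold change -4.85 ± 0.16 (SE), adjusted p = 6.21e-33) and Kcnj16 to 0.269 to 0.900 TPM (median 0.420) from 3.59 to 35.9 TPM (median 18.6) (log2 fold change -6.20 ± 0.20 (SE), adjusted p = 2.63e-33). Kcnj9 (-4.50), Kcnj4 (-5.21), Kcnk4 (-4.53) and Kcns3 (-4.52) completed the 10 largest decreases. Beside these, oligodendrocyte markers summed to 15.3 to 40.1 TPM in the embryonic brain, astrocyte markers to 81.6 to 230.1 TPM, neuronal markers to 519 to 2263 TPM and red cell markers to 2118 to 6132 TPM, where the hypothalamus of the adult had 844 to 12949.8 TPM, 547 to 817 TPM, 1429.7 to 2621 TPM and 263 to 1641 TPM. The part of cell makeup in the changes was not tested.

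The genes higher in the embryo were few. Kcnh4, of the ether-a-go-go-like group, had 11.5 TPM in F, 13.4 and 13.5 in M, 2.65, 9.48 and 9.46 in H and 18.1, 15.9 and 15.2 in THy/PHy against 0.0320 to 14.998 TPM (median 0.371) in the adult (log2 fold change 3.96 ± 0.13 (SE), adjusted p = 6.18e-33), and the adult libraries that reached this range were all of ACA, FRP and ACB, 1 of ENT and 1 of ARH. Its paralog Kcnh8 rose too, to 2.25 to 8.92 TPM (median 5.99) from 0.0270 to 3.48 TPM (median 0.740) (log2 fold change 2.86 ± 0.15 (SE), adjusted p = 1.83e-23). Kcnk10, a leak channel related to Kcnk2, had 5.67 to 24.2 TPM (median 18.7) against 1.56 to 27.96 TPM (median 5.38) (log2 fold change 1.25 ± 0.08 (SE), adjusted p = 1.42e-20). Kcnk5 (2.20), Kcne3 (2.83) and Kcnj15 (1.53) were called at embryonic means of 3.25, 1.14 and 0.361 TPM. Kcne2 (3.73) was the choroid plexus gene described above. Among genes that changed by less than 2-fold, Kcnd3 had 12.8 to 49.3 TPM (median 22.97) in the embryo (-0.67 ± 0.08 (SE), adjusted p = 2.59e-11) and Kcnk2 10.9 to 31.9 TPM (median 26.3) (-0.28 ± 0.06 (SE), adjusted p = 1.85e-05).

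**Figure D5:**
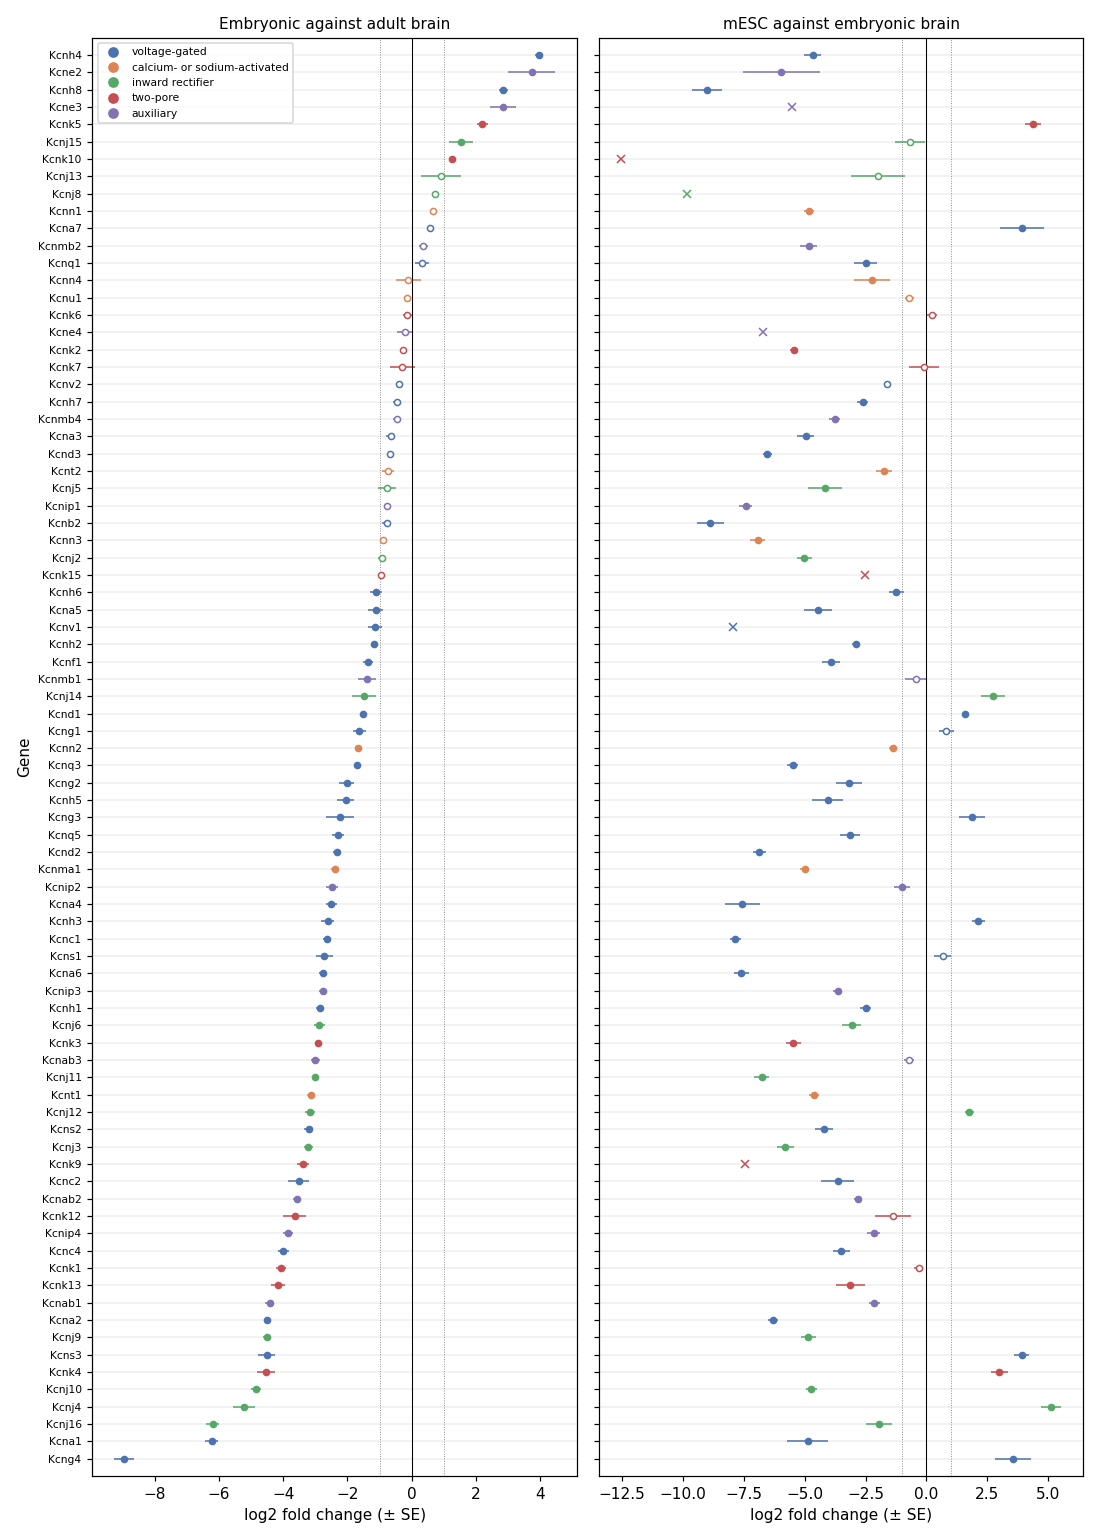
Log2 fold change ± SE of 82 of the tested genes in the embryonic against the adult brain (left) and in mESC against the embryonic brain (right), ordered by the left panel and coloured by class. Filled points were called, crosses mark genes with 0 counts in all 4 mESC libraries, bars of SE over 5 are not drawn, and most points lie left of 0 in both panels.

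The same stages were compared within a system. Embryonic hypothalamus (THy/PHy) had 9 channel genes higher and 55 lower than the adult nuclei (18.2% and 20% of all genes), and embryonic hindbrain (H) had 10 higher and 47 lower than the adult hindbrain nuclei (23% and 21.1%). In the hypothalamus the largest decreases were Kcnj16 (-6.50), Kcnj10 (-5.60), Kcng4 (-5.55), Kcnj4 (-5.49), Kcnk4 (-4.62), Kcna1 (-4.61), Kcnc2 (-4.09), Kcnk13 (-4.07), Kcns2 (-3.99) and Kcnk9 (-3.80). In the hindbrain they were Kcng4 (-9.02), Kcna1 (-6.01), Kcns3 (-5.99), Kcnj10 (-5.80), Kcnk13 (-5.80), Kcnj16 (-5.72), Kcnk4 (-5.22), Kcnab2 (-4.58), Kcnab3 (-4.46) and Kcna2 (-4.38). Kcnh4 was above all adult libraries of its system in both, with 18.1, 15.9 and 15.2 TPM in THy/PHy (log2 fold change 3.71 ± 0.22 (SE), adjusted p = 6.57e-21) and 2.65, 9.48 and 9.46 TPM in H (log2 fold change 4.66 ± 0.27 (SE), adjusted p = 9.68e-22). Kcnj8, an ATP-sensitive channel of vessel walls, was higher in the embryonic hypothalamus (9.15, 6.05 and 6.10 TPM; log2 fold change 1.33 ± 0.17 (SE), adjusted p = 6.42e-10), and Kcnmb4 in the embryonic hindbrain (20.9, 42.4 and 36.3 TPM; log2 fold change 1.51 ± 0.17 (SE), adjusted p = 3.63e-11). Other increases were Kcne3 (3.48), Kcnh8 (2.29), Kcnk5 (1.99), Kcnk10 (1.46), Kcnn1 (1.11), Kcnj15 (2.26) and Kcna7 (2.74) in the hypothalamus, and Kcne2 (5.15), Kcne3 (3.61), Kcnj15 (3.24), Kcnj13 (3.01), Kcnv2 (2.69), Kcnh8 (1.48), Kcnn4 (1.27) and Kcnk10 (1.01) in the hindbrain, of which Kcna7, Kcnj15, Kcnv2 and Kcnn4 had embryonic means under 1 TPM. The call of Kcna7 was lost without THy/PHy replicate 1, and those of Kcnn4 and Kcnk10 in the hindbrain without H replicate 3 and several others.

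The difference of the 2 stage contrasts was itself tested. It was positive for 12 genes, whose decrease was smaller (or increase larger) in the hypothalamus, and negative for 16 (3.46% and 6.38% of all genes). Kcnab3, a cytoplasmic subunit of the Kcna channels, had a stage log2 fold change of -2.13 in the hypothalamus and -4.46 in the hindbrain, a difference of 2.33 ± 0.28 (SE, adjusted p = 1.65e-08). Its embryonic levels were 2.25, 1.88 and 3.45 TPM in THy/PHy and 1.57, 3.64 and 4.67 TPM in H, and the adult levels were 3.03 to 49.8 TPM (median 10.7) and 46.2 to 109 TPM (median 89.7). Kcnab2 (1.47), Kcnh2 (1.56), Kcns3 (2.98) and Kcna1 (1.40) differed in the same direction, and that of Kcna1 was lost without THy/PHy replicate 3. On the negative side, Kcna4 (-2.27), Kcnj3 (-1.58) and Kcnq3 (-1.39) differed, and Kcnj3 had 2.90, 3.54 and 3.55 TPM in THy/PHy and 7.66, 10.8 and 9.56 TPM in H.

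In mESC 11 channel genes were higher and 61 lower than in the embryonic brain, 12.8% and 70.9% of those tested, where 26.8% and 29% of all genes were. The median was -3.27 over the 86 genes (-3.25 with genes at 0 placed at their bound) and -0.0021 over all genes. Of the voltage-gated genes 29 of 39 were lower, of the auxiliary subunits 11 of 13, of the inward rectifiers 9 of 14, of the calcium- or sodium-activated genes 7 of 8 and of the two-pore genes 5 of 12. For 56 genes all 4 mESC libraries lay below all 9 embryonic ones, and the count over all genes was not taken. Kcnk10 had 0 counts in every mESC library and 5.67 to 24.2 TPM (median 18.7) in the embryonic brain, and was at least 1039-fold lower with a floor of 3 counts over the 4 libraries. By the same floor Kcnj8 was at least 173-fold lower, Kcnk9 at least 61.2-fold, Kcnv1 at least 51.2-fold, Kcne4 at least 21.8-fold and Kcne3 at least 9.81-fold. Kcnc1 fell from 6.20 to 25.4 TPM (median 18.4) to 0.0478 to 0.0791 TPM (median 0.0717) (log2 fold change -7.86 ± 0.22 (SE), adjusted p = 3.65e-35). Kcnh8 (-9.01), Kcnb2 (-8.87), Kcna6 (-7.60), Kcna4 (-7.56) and the Kcnd-binding Kcnip1 (-7.43) were among the other large decreases.

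Kcnk5, which encodes an acid- and volume-sensitive leak channel, was the potassium channel gene with the highest level in mESC, at 38.9 and 38.5 TPM in line B6-1 and 50.4 and 53.7 TPM in line B6-2. It was 0.737 to 6.66 TPM (median 2.34) in the embryonic brain (log2 fold change 4.39 ± 0.32 (SE), adjusted p = 6.65e-18) and at most 2.38 TPM in any adult library. Kcnj12 had 4.59 and 5.49 TPM in B6-1 with 5.04 and 5.53 TPM in B6-2 (log2 fold change 1.76 ± 0.18 (SE), adjusted p = 1.72e-12), Kcnd1, an A-type channel, 5.42 and 6.25 TPM in B6-1 with 3.46 and 3.02 TPM in B6-2 (log2 fold change 1.60 ± 0.09 (SE), adjusted p = 2.86e-22), and Kcnj4 2.44 and 2.84 TPM in B6-1 with 2.35 and 3.24 TPM in B6-2 (log2 fold change 5.14 ± 0.41 (SE), adjusted p = 2.14e-16). Kcnj14 (2.74), Kcns3 (3.91) and Kcnh3 (2.14) were higher at means of 3.12, 2.34 and 1.46 TPM, and Kcna7, Kcng4, Kcnk4 and Kcng3 were called from means under 1 TPM. The call of Kcng3 was lost in limma on TPM and without F replicate 1, where its log2 fold change fell to 0.579, and the groups overlapped. Only 4 of the 92 genes reached a mean of 5 TPM in either line, where 30.3% of all genes did, with Kcnk5, Kcnj12 and Kcnd1 among the 4.

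Partner genes outside the family, 16 in all, were read beside the channels. In the cerebellar cortex 4 were higher and 3 lower, in CBN 3 and 1, in the embryonic brain 1 and 10, and in mESC 0 and 13. Of all genes, 8.21% and 9.75%, 7.86% and 2.88%, 17.8% and 19.9%, and 26.8% and 29% were called in the same order. In DMH, PVH and VMH, each against the other nuclei, 0 partner genes were higher and 0 lower. Abcc8, the sulfonylurea receptor that assembles with Kcnj11, was higher in the cerebellar cortex (1.55, 53.7 against 16.7 TPM), while Kcnj11 changed by less than 2-fold (0.44 ± 0.05 (SE), adjusted p = 8.67e-11). Both were lower in the embryo, Abcc8 at -3.20 and Kcnj11 at -3.02 on the log2 scale. Abcc9, the receptor that pairs with Kcnj8 in vessels, was higher in the embryonic hypothalamus (1.46), where Kcnj8 was also higher. Of the Kcnd partners, Dpp10 was lower in CBN (-1.31, 29.3 against 79.6 TPM), and Dpp6 and Dpp10 were lower in the embryo (-1.82 and -2.89). Lgi1 and Adam22, which anchor Kcna channels, were lower in the embryo (-3.37 and -1.91), and Lgi1 was higher in the cortex (1.24, 115 against 52.6 TPM). Amigo1, a subunit of Kcnb channels, was lower in the embryo (-1.79). Among the pacemaker channels, Hcn2 was higher in CBN (1.78, 342 against 124 TPM) and the hindbrain nuclei (1.34) and lower in the embryo (-4.94), while Hcn4 was higher in the embryo (1.32, 19.2 against 8.07 TPM) and lower in mESC (-6.88).

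The gene spans of 9 members, introns included, overlap a protein-coding gene. Reads could be shared where the transcripts overlap as well, which was not checked. Kcnip1 overlaps Kcnmb1 on the opposite strand, and Kcnk4 overlaps Catsperz on its own strand. Since the strand setting of the authors' quantification is not given in the sources used here, the levels of Kcnip1, Kcnmb1, Kcnh1, Kcnh3, Kcnh7, Kcnj13, Kcnab2 and Kcnip4 carry this limit. For Kcnk4 the limit holds whatever the strand setting.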

How the data were processed

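RNA-Seq libraries from 57 adult and 9 embryonic brain samples and 4 mESC samples were analysed. The deposited estimated counts per transcript and the deposited TPM per gene and per transcript were made by the authors with Kallisto against mouse cDNA of GRCm38, after base calling with CASAVA 1.8.2 per the submitters' processing notes. Estimated counts were summed per gene through GENCODE (107987 of 109282 transcripts matched, 0.418% to 0.767% of counts unmatched) and rounded to whole numbers. Total counts were 9074581 to 22229582 per library, which limits the precision for genes under 1 TPM. TPM values the authors deposited were used for levels. They are relative, so a large share of one kind of transcript lowers all others.

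Samples were grouped by the labels. Gene counts were tested with edgeR 4.0.16 (R 4.3.3; TMM scaling, genes kept by filterByExpr, quasi-likelihood test) in a single fit of 70 libraries and 24 groups, with 17 contrasts and Benjamini-Hochberg adjustment. Calls needed an adjusted p under 0.05 and a log2 change over 1 in size. On simulated counts for the ACB contrast, the step recovered 100 of 100 genes changed 4-fold and 100 of 100 changed 8-fold. These were among 17845 genes, with 0 false calls. The changed genes were drawn only from those above a set expected count. Apart from them the simulated regions did not differ, and the spread between libraries was a single fixed value. Recovery of changes under 4-fold, of changes in genes with low counts, and in the contrasts other than ACB, was not tested. Alternatives were DESeq2 1.42.0, no filter, limma 3.58.1 on log2(TPM + 0.5) or log2(TPM + 0.1), a replicate block, scaling without mitochondrially encoded genes, fits to the libraries of a contrast alone, equal weight of the 7 adult systems, the cerebellar cortex without FL, inferred collection batches as a term (added after seeing the data), and leaving out single libraries. Figures were drawn with matplotlib 3.10.9.

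Named genes were, per comparison, the 10 called genes with the largest change in each direction, the 15 highest in the adult brain, those under 1 TPM everywhere, those concentrated in 1 system, a core list of 36 and 16 partner genes. Some members enter the counts and sums but are not reported here by name. Members and lists were chosen with earlier results of these data known.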

Additional observations from a re-analysis of the deposited data

Results flagged for a closer look

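In groups of 4 libraries, 170 tests of the gap between the highest or lowest library and its nearest neighbour gave 14 flags over 34 measures, where chance flags about 1 in 20. FL replicate 1 stood above the other 3 FL libraries for Kcnj3 (57.6 TPM against 47.7 to 49.2), Kcnj6 (11.2 TPM) and Kcns2 (3.43 TPM). CENT2 replicate 1 stood apart for Kcnc2 (20.3 TPM), Kcnv1 (0.687 TPM) and, on the low side, Kcnab1 (111.5 TPM), and CENT2 replicate 3 was low for Kcnj6 (9.65 TPM). CUL4,5 replicate 1 was high for Kcnab2 (134 TPM) and low for Kcnj3 (63.8 TPM). NTS replicate 1, the library with the high choroid plexus marker sum, was low for Kcnab2 (333 TPM), and NTS replicate 4 was high for Kcnj6 (9.94 TPM). In DMH the flagged values were those of Kcnk1 in replicate 2 (48.9 TPM), Kcns2 in replicate 4 (9.25 TPM) and Kcnt1 in replicate 1 (76.7 TPM).

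The stage contrast differed between hypothalamus and hindbrain by the tested difference of both contrasts (edgeR, hypothalamus minus hindbrain, log2). It was positive for Kcns3 (2.98), Kcnk12 (2.64), Kcnab3 (2.33), Kcnk13 (1.73), Kcnh2 (1.56), Kcnab2 (1.47), Kcnj8 (1.46), Kcnn1 (1.40) and Kcna1 (1.40). It was negative for Kcnv2 (-3.63), Kcnn4 (-2.64), Kcna4 (-2.27), Kcnh3 (-2.18), Kcng3 (-1.63), Kcnj3 (-1.58), Kcnip2 (-1.50), Kcnq3 (-1.39), Kcnk6 (-1.38) and Kcnt2 (-1.34). Kcnv2 was under 1 TPM in every group. The calls of Kcnk12, Kcnk13 and Kcnt2 were lost without THy/PHy replicate 1, that of Kcna1 without THy/PHy replicate 3, that of Kcnk6 without H replicate 1, those of Kcnip2 and Kcnh3 without H replicate 3, and that of Kcnn4 without either H replicate 1 or THy/PHy replicate 1. That of Kcng3, at an adjusted p of 0.0429 (edgeR), held in 16 of 30 fits that each left out 1 library, and was lost with no filter, with the replicate block and in limma with a pseudocount of 0.5.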

How the results depend on the processing

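In limma on TPM the counts of higher genes fell with a pseudocount of 0.5 to 8 in CBN (from 13), 7 in the hypothalamus (from 12), 7 in mESC (from 11) and 3 in ARH (from 5), and with either pseudocount to 3 in VTA (from 11), 4 in LHA (from 8) and 3 in PVH (from 5). Lower genes were 23 in VTA at 0.1 (from 14), 1 in DMH at either (from 2) and 1 in LHA at 0.5 (from 2). The median of all genes moved by -0.39 and -0.47 in VTA and by -0.23 and -0.31 in mESC under these 2 settings. Equal weight of systems gave 6 higher genes in the hypothalamus. A fit to the libraries of the contrast alone gave 1 higher gene in VMH (from 0) and 5 in the embryonic hindbrain (from 10). Kcnv2 in VTA reversed to -0.0329 (limma, pseudocount 0.5, adjusted p = 0.759). Summed counts, scaled to library size in place of TPM, had medians of 6176 (adult), 1310 (embryonic) and 212 (mESC). The causes were not tested.

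Leaving out single libraries, counts of higher and lower genes ran from 16 to 17 and 34 to 35 in the cerebellar cortex, 11 to 12 and 18 to 21 in CBN, 9 to 12 and 8 to 8 in the hypothalamus, 13 to 13 and 8 to 10 in the hindbrain nuclei, 31 to 32 and 10 to 11 in the cortex, 22 to 22 and 17 to 19 in ACB, and 10 to 14 and 9 to 15 in VTA. For nuclei they were 4 to 6 and 8 to 11 in ARH, 0 to 0 and 1 to 2 in DMH, 6 to 10 and 0 to 2 in LHA, 4 to 5 and 0 to 1 in PVH, and 0 to 0 and 0 to 3 in VMH. Between stages they were 7 to 9 and 49 to 53 for the embryonic brain, 8 to 9 and 55 to 57 for its hypothalamus, 8 to 11 and 45 to 48 for its hindbrain, 10 to 14 and 12 to 17 for their difference, and 10 to 12 and 60 to 63 for mESC.

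The replicate numbers did not mark the inferred collection batches. Over 436 pairs of same-numbered libraries from different regions the median correlation of deviations was 0.0127 (lowest -0.203, 49 over 0.1), and 25 of 57 libraries were nearest to one of their own number. With the replicate block 2 of 266 named calls were lost. Libraries of the inferred collection batches had a median correlation of 0.0246 over 357 pairs, and 31 of 57 were nearest to their own batch. The counts expected without a batch effect were not taken for either grouping, and the main fit held no batch term. With the collection batches in the fit, added after seeing the data, VMH had 1 higher gene (from 0). Stage contrasts could not be fitted so. Over all alternatives, 2092 values kept direction and call, 109 lost the call and 1 reversed. Genes under 1 TPM are limited by depth.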

Other observations

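Of the 86 tested genes, 8 were called in none of the 7 comparisons of an adult system with the rest, among them Kcna6, Kcnd1, Kcnip4, Kcnj8, Kcnj11, Kcnn1 and Kcnn2. The share of all tested genes without a call was not taken. Kcna6, of the axonal Kcna family, had adult group means of 48.3 to 106 TPM. Kcnn2, an SK channel, had 15.8 to 41.2 TPM, and Kcnj11, the pore of the neuronal ATP-sensitive channel, 16.03 to 47.03 TPM. Of these 8 genes, Kcna6, Kcnd1, Kcnip4, Kcnj11 and Kcnn2 were lower in the embryonic brain.

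FL stood beside the other lobules of the cerebellar cortex with other levels for some genes. Kcng4 was 66.6, 69.99, 75.7 and 82.5 TPM in FL and 125, 136, 122 and 136 TPM in CUL4,5, and Kcnk15 was 0.623, 2.51, 1.17 and 2.80 TPM in FL and 0.0630, 0.117, 0.190 and 0.940 TPM in CENT2. These differences between lobules were not tested.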
